A study of Mus musculus with 6 samples.

Results

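The transcripts of 10 genes that carry or restrain signals between mouse pluripotent cells were followed: Nodal and Gdf3, ligands of the TGF-beta family; Tdgf1 (Cripto), the co-receptor of Nodal; Lefty1 and Lefty2, its secreted inhibitors; Bmp4; the fibroblast growth factors Fgf4 and Fgf8; and Spry2 and Spry4, feedback inhibitors of FGF signalling. They were named one by one for their role in these pathways, and all 10 were found among the 22558 gene names of the deposited tables. The data were 6 mRNA sequencing libraries from 6 cultures, 1 library per condition. Embryonic stem cells (ESC) of strain 129Sv labelled as H2A.X knockout made with Cre (H2A.X KO) were set against Flox/Flox ESC of the same strain, and H2A.X is a histone variant whose phosphorylation marks DNA breaks. Induced pluripotent stem cells (iPSC) of a 129Sv/C57 mix, labelled 4N- or 4N+, came from peritoneal fibroblasts (PF) or from tail tip fibroblasts (TTF), with 1 line of each label per parental cell type. For the iPSC the labels give no genotype beside the H2A.X in every library's name, and they do not spell out 4N. All cultures were at passage 25, had grown on feeder cells with LIF and were moved to gelatin before lysis. The labels do not say whether a culture was 1 clone.

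Nodal binds activin receptors together with Tdgf1, activates Smad2 and Smad3, and induces its own gene and those of its inhibitors Lefty1 and Lefty2, a feedback loop that is known to run in mouse ESC. BMP4 acts through Smad1 and Smad5, induces the Id genes, and with LIF helps to hold mouse ESC undifferentiated. FGF4, made by the ESC themselves, activates ERK through FGF receptors and is known to make ESC ready to differentiate, and the Sprouty proteins are induced by this signal and dampen it.

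The values were deposited as FPKM, which divides the fragments of a gene by its length and by the depth of sequencing. Fragment-scale steps in the values gave effective depths of 39060000 to 61181000 fragments per library. H2afx, the gene of H2A.X, stood at 6.18 FPKM in KO cells, against 34.9 FPKM in Flox/Flox cells, and at 65.3 to 75.2 FPKM in the iPSC. The library labelled KO thus still held H2afx transcript above 1 FPKM, and which part of the gene was deleted is not given in the sources used here. The 8 pluripotency markers each reached 1 FPKM in all 6 libraries. Their summed level was 1100 FPKM in KO cells, against 1910 FPKM in Flox/Flox cells, and 1860 to 2100 FPKM in the iPSC. Dppa5a alone gave 682 FPKM of the KO sum and 1260 FPKM of the Flox/Flox sum, while Nanog had 111 FPKM in both. The KO library also stood apart in its 10 trophoblast markers, which summed to 974 FPKM, against 40.2 FPKM in Flox/Flox cells, and to 23.2 to 62.1 FPKM in the iPSC. The keratin genes Krt18, Krt8 and Krt7 gave 659, 188 and 83.1 FPKM of the KO sum, and Hand1 gave 34.0 FPKM. Cdx2, Elf5 and Tpbpa stayed under 1 FPKM in both ESC cultures. Ascl2 had 1.65 FPKM in KO cells and 1.81 FPKM in Flox/Flox cells. The 10 extraembryonic endoderm markers of the KO library summed to 80.7 FPKM, against 9.51 FPKM in Flox/Flox cells, with Ttr listed at 0 in the KO library. Col4a1 and Col4a2, basement membrane collagens, gave 45.0 and 29.3 FPKM of the KO sum, and Afp, Sox17 and Sox7 stayed under 1 FPKM in both. The 10 fibroblast markers summed to 6.45 FPKM in the 4N- PF line, against 59.3 FPKM in the 4N+ PF line, and to 2.38 to 8.82 FPKM in the other 4 libraries, with Lum listed at 0 in all 6. In bulk RNA such as this, fewer cells of a type and less RNA per cell cannot be told apart.

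Of the 10 genes, 9 reached 1 FPKM in every library, and Fgf8 in none. Tdgf1 had the highest level of the 10 in each library and Fgf4 the next highest. Tdgf1 ranged from 360 to 772 FPKM over the 6 libraries (median 695 FPKM), and Fgf4 from 42.9 to 86.8 FPKM (median 74.8 FPKM). Nodal varied least among the 9, with its highest library 1.82-fold above its lowest, and Lefty2 varied most, over an 8.48-fold range. Lefty1 spanned a 6.68-fold range and Spry4 a 3.72-fold range. The KO ESC had the lowest level of Tdgf1, Gdf3, Bmp4, Fgf4, Spry2 and Spry4 among the 6 libraries, Bmp4 by less than its counting error against the Flox/Flox ESC. The 4N- PF line had the lowest Lefty1 and Lefty2, and both TTF lines had more Lefty1 and Lefty2 than any of the other 4 libraries. The 3 tables, 1 per pair of cultures, may have been scaled separately, so these orders across tables carry that limit.

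**Figure D1:**
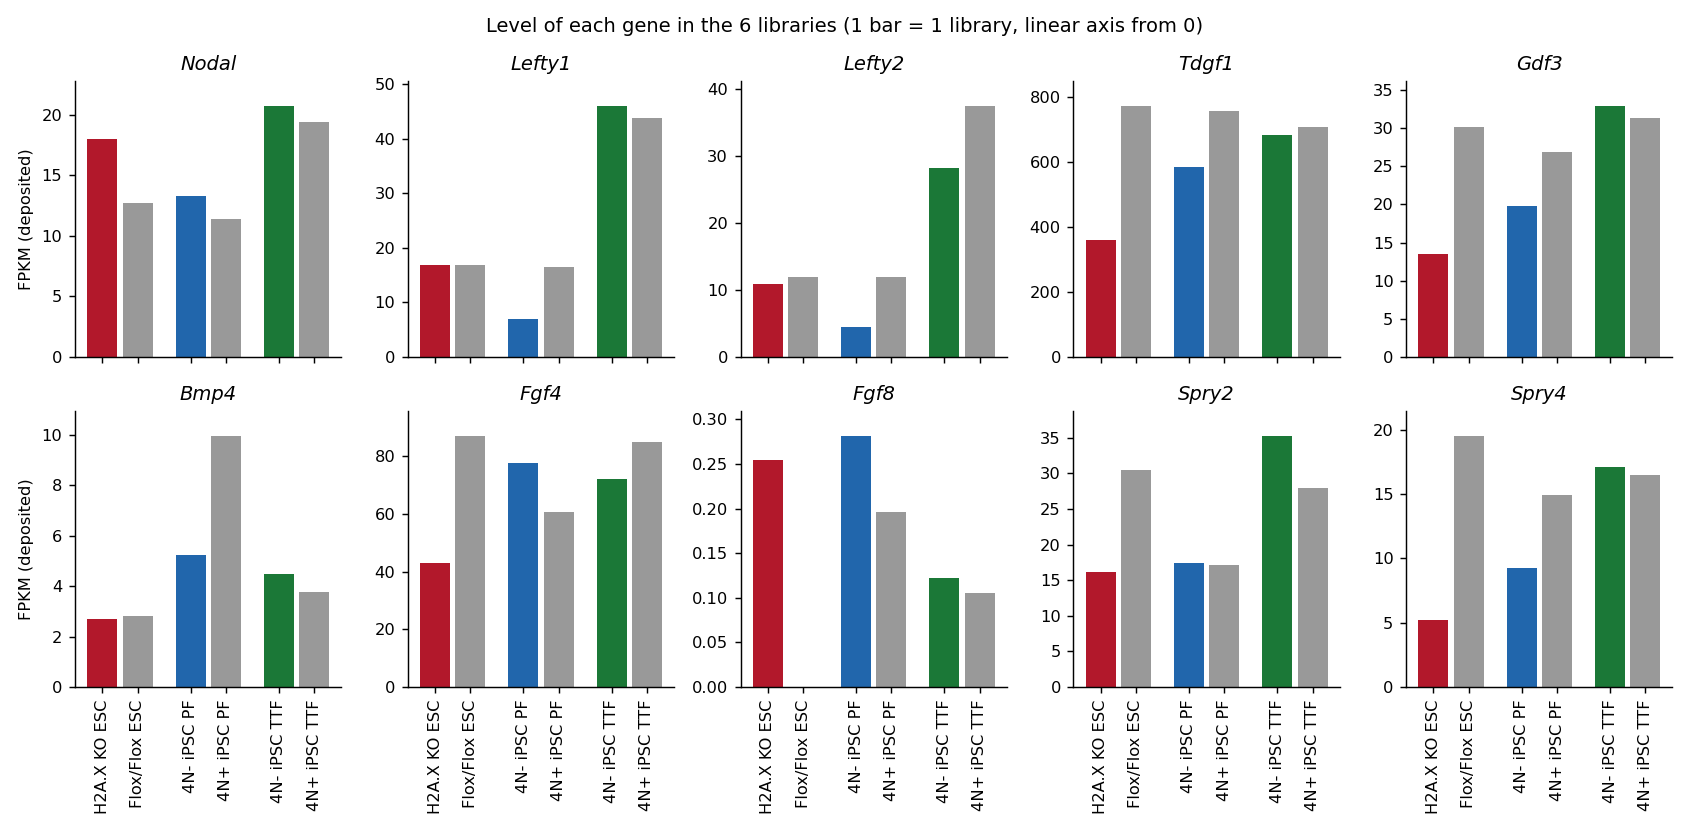
Deposited FPKM (y axis, linear, from 0, with its own scale for each gene) of the 10 genes in the 6 libraries (x axis); PF is peritoneal and TTF tail tip fibroblast origin, and the grey bars are Flox/Flox and 4N+. Each bar is 1 library and has no error. Lefty1 and Lefty2 are lowest in the 4N- PF line at 6.89 and 4.42 FPKM, Spry4 is lowest in the KO ESC at 5.24 FPKM, and Fgf8 is listed at 0 in the Flox/Flox ESC.

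Start regions of 4 of the genes are printed because 3 of them, Fgf4, Tdgf1 and Spry2, had their lowest level in the KO ESC while Nodal did not. RefSeq's promoter table (GRCm38.p6) held 5 of the 10 genes. The fifth, Bmp4, also had its lowest level in the KO ESC, by less than its counting error, and its region is not printed. Each line gives the 250 bases before the annotated start, 5′ to 3′ on the gene's strand, with matches in capitals to the words GGGCGG (the box that Sp1-type factors bind), CCAAT (the box that NF-Y binds) or CCGGAA (the core that ETS factors bind), searched on both strands. The regions are chr7:144861136-144861385 on the plus strand for Fgf4, chr9:110946159-110946408 on the minus strand for Tdgf1, chr14:105896820-105897069 on the minus strand for Spry2 and chr10:61417722-61417971 on the plus strand for Nodal.
Fgf4: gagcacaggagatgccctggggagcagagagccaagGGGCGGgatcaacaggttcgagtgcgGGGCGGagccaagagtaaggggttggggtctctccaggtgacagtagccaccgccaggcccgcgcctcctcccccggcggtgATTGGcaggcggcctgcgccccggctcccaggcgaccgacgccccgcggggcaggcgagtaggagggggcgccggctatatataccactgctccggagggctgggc
Tdgf1: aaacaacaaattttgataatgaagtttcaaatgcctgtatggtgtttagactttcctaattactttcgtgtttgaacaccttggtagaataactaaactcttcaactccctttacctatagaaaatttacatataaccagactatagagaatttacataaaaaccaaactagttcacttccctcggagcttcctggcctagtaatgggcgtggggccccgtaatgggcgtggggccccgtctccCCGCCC
Spry2: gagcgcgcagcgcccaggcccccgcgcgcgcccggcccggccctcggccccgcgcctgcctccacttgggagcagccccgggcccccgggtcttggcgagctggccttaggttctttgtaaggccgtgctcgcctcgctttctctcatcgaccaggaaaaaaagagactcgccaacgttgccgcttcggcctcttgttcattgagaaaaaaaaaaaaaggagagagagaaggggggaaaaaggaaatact
Nodal: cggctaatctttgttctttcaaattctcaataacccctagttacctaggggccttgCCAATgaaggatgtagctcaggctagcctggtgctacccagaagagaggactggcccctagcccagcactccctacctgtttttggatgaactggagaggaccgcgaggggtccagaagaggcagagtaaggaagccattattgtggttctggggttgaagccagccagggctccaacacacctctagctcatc
The Fgf4 region held 2 GC boxes (the first word), beginning 214 and 188 bases before the start, and a CCAAT box beginning 106 bases before it. Tdgf1 had 1 GC box next to the start, Nodal 1 CCAAT box, and Spry2 none of these words. Bmp4 had 1 GC box and, 95 bases before its start, the 1 ETS core found in the 5 regions. Among 32851 promoters of the same length, 32.7% held the GC box, 33.8% the CCAAT box and 12% the ETS core. The exact words TATAAA (for the TATA box), ATGCAAAT (octamer) and AATCCACA (FOXH1) were searched too and had no match in the 5 regions. They were found in 12.4%, 1.6% and 0.718% of all promoters. Variants of these words were not searched. The Fgf4 line holds a run of alternating T and A near its end, so its lack of a match does not show that it lacks a TATA box. The base composition of the regions differed, with 71.2% G and C in Fgf4, 62.4% in Spry2, 53.2% in Nodal and 42.0% in Tdgf1, against a median of 52.4% over all promoters. A match is a description of the letters and not evidence of binding.

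In the KO ESC, transcripts of Tdgf1, Gdf3 and Spry4 were at least 2-fold lower than in the Flox/Flox ESC, and those of Fgf4 and Spry2 nearly so. Nodal was higher, while Lefty1, Lefty2 and Bmp4 had nearly the same values in both. On the log2(FPKM + 1) scale, used for all log2 ratios and the 2-fold line while plain ratios and folds are of FPKM itself, 2 of the 9 genes at 1 FPKM or more were above 0 and 7 below, with a median of -0.88, against -0.03 over the 12086 genes measured. Past the 2-fold line, 3 of the 9 were lower and 0 higher, where 3.72% of all measured genes were lower and 7.49% higher. None of the 10 was significant in the authors' deposited table, which called 1.44% of the genes it tested. Both libraries stand alone in their condition, so none of these differences has a replicate check. The well-expressed genes, those with at least 5 FPKM in each library, had a median of -0.20. Relative to that shift Spry4 alone passed the 2-fold line, 4 of the 9 genes were above 0, and the genes past 2-fold in the whole table numbered 1412 higher and 202 lower, in place of 905 and 449.

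Among the Nodal pathway genes, Nodal (mm9 chr10:60880719-60888085, plus strand) had 18 FPKM in KO cells and 12.7 FPKM in Flox/Flox cells. The ratio was 1.42 (approximate 95% interval 1.31 to 1.53, conditional exact binomial, from about 1327 and 1197 fragments). Such intervals cover counting error only, and they rest on transcript lengths from GENCODE that may differ from those the authors used. Its co-receptor Tdgf1 (chr9:110842111-110848662, minus strand) ran the other way, at 360 FPKM in KO cells and 772 FPKM in Flox/Flox cells, or 46.6% of the Flox/Flox level. Gdf3 (chr6:122555420-122560089, minus strand), which also signals through Tdgf1 and activin receptors, stood at 13.5 FPKM in KO cells and 30.2 FPKM in Flox/Flox cells. The log2 ratios of Tdgf1 and Gdf3 were -1.1 and -1.11, or -0.90 each relative to the table's shift. Gdf3 reached q = 0.555 in the authors' deposited table. The inhibitor Lefty1 (chr1:182865169-182868532, plus strand) had 16.9 FPKM in KO cells and 16.8 FPKM in Flox/Flox cells, and the interval of its ratio, 0.919 to 1.09, spanned 1. Lefty2 (chr1:182823249-182829233, plus strand), 35.9 kb away, had 10.9 FPKM in KO cells and 12 FPKM in Flox/Flox cells, and its log2 ratio of -0.13 became 0.07 relative to the shift. The summed Lefty level was thus 1.55 times that of Nodal in the KO ESC, against 2.27 times in the Flox/Flox ESC. Gdf3 amounted to 0.75 times the Nodal level in the KO ESC and 2.38 times in the Flox/Flox ESC.

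Some of these values share sequence with near copies. Lefty1 shared 17.9% of its 50-base words with Lefty2, Lefty2 11.6% with Lefty1, and Tdgf1 12.5% of its words with the pseudogene Tdgf1-ps1. How the authors assigned reads from shared stretches is not given in the sources used here. In this respect the split between the 2 Lefty genes and the exact level of Tdgf1 are less certain than those of Nodal, Fgf4, Spry2 and Spry4, which shared none. Bmp4 overlaps 2 annotated genes on the other strand, Gm15217 and Gm15222, and Spry4 overlaps 2, Gm27369 and Gm27804. No strand setting is stated, so reads from these genes cannot be told apart from Bmp4 or Spry4 reads.

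The receptors and Smads of the Nodal pathway were nearly level in the KO ESC: of 7 measured among 8, none passed 2-fold in either direction, and Smad2 had 16.3 FPKM in KO cells and 20.1 FPKM in Flox/Flox cells. Smad3 stood highest among the differences, at 7.20 FPKM in KO cells and 4.29 FPKM in Flox/Flox cells. Of 9 processing and inhibitor genes, counted with no filter, 1 was at least 2-fold higher and 1 lower. Over all genes at 1 FPKM or more, 7.49% were at least 2-fold higher and 3.72% lower. The higher gene of the 9 was Furin, a protease that cleaves the Nodal precursor, at 5.82 FPKM in KO cells and 1.76 FPKM in Flox/Flox cells. The lower one was Inhbb, an activin subunit, at 0.449 FPKM in KO cells and 2.42 FPKM in Flox/Flox cells. Pcsk6, a processing gene of the same list, went the other way from Furin. It had 4.42 FPKM in KO cells and 6.42 FPKM in Flox/Flox cells, a log2 ratio of -0.45. Skil, a repressor of Smad-dependent transcription, had 23.7 FPKM in KO cells and 47.5 FPKM in Flox/Flox cells, a log2 ratio of -0.97. Eomes, a T-box gene that Nodal signals can induce, had 1.79 FPKM in KO cells and 2.65 FPKM in Flox/Flox cells.

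Bmp4 (chr14:46999198-47010274, minus strand) was low and alike in both ESC cultures, at 2.72 FPKM in KO cells and 2.83 FPKM in Flox/Flox cells, with an interval of the ratio from 0.798 to 1.16. The genes that BMP signals induce were not alike. All 6 BMP targets, counted with no filter on level, had a log2 ratio above 0, with a median of 1.26, and 4 were at least 2-fold higher in the KO ESC, relative to the table's shift too. Over all genes at 1 FPKM or more, 7.49% were at least 2-fold higher, and relative to the table's shift 1412 of these 12086 genes were. The share with no filter was not counted. With no filter, all 7 mesoderm and primitive streak markers were above 0 too, with 0 of them at least 2-fold higher. The Id genes encode inhibitors of basic helix-loop-helix factors. Id1 had 39.0 FPKM in KO cells and 16.1 FPKM in Flox/Flox cells. Id2 had 49.7 FPKM in KO cells and 19.6 FPKM in Flox/Flox cells. Id3 had 23.7 FPKM in KO cells and 6.48 FPKM in Flox/Flox cells. These 3 genes were thus high in the KO library, without reaching significance in the authors' deposited table. Msx2, a homeobox gene, had 5.11 FPKM in KO cells and 0.328 FPKM in Flox/Flox cells, with q = 0.00179 in the authors' deposited table. Among 10 other BMP ligands, receptors and Smads, 7 were measured and 2 ligands passed 2-fold. Bmp8b had 5.32 FPKM in KO cells and 1.14 FPKM in Flox/Flox cells, and Bmp7 had 3.39 FPKM in KO cells and 1.1 FPKM in Flox/Flox cells. The receptor gene Bmpr1a had 19 FPKM in KO cells and 22.6 FPKM in Flox/Flox cells. None of the 4 measured BMP inhibitors passed 2-fold. Of the 10 trophoblast markers, again with no filter, 9 had a log2 ratio above 0 and 6 were at least 2-fold higher, among them Krt18 at 659 FPKM in KO cells and 26.7 FPKM in Flox/Flox cells. Hand1, a transcription factor of trophoblast and mesoderm, had 34.0 FPKM in KO cells and 0.829 FPKM in Flox/Flox cells. Their part in the BMP target values was not tested.

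On the FGF side, Fgf4 (chr7:152047290-152051148, plus strand) had 42.9 FPKM in KO cells and 86.8 FPKM in Flox/Flox cells. That is 49.4% of the Flox/Flox level (interval of the ratio 0.478 to 0.511), and the log2(FPKM + 1) ratio of -1.0 fell just short of the 2-fold line before rounding. Spry4 (chr18:38745918-38760922, minus strand) differed most among the 10, with 5.24 FPKM in KO cells and 19.5 FPKM in Flox/Flox cells. It was 3.72-fold lower in the KO ESC (interval 3.47 to 4.00), with a log2 ratio of -1.72 and q = 0.0894 in the authors' deposited table. Spry2 (chr14:106291163-106296036, minus strand) had 16.1 FPKM in KO cells and 30.5 FPKM in Flox/Flox cells, a log2 ratio of -0.88. Spry4 was lower relative to Fgf4 as well, at 0.122 times the Fgf4 level in the KO ESC and 0.225 times in the Flox/Flox ESC, whereas Spry2 amounted to 0.376 times Fgf4 in the KO ESC and 0.352 times in the Flox/Flox ESC. Fgf8 (chr19:45811287-45817374, minus strand) had 0.255 FPKM in the KO ESC, about 10 fragments, and was listed at 0 in the Flox/Flox ESC.

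The other ERK feedback and target genes divided in the KO ESC. Over all genes at 1 FPKM or more in this pair, 51.7% lay below 0, 7.49% were at least 2-fold higher and 3.72% lower. Relative to the table's shift, 1412 of these 12086 genes were at least 2-fold higher and 202 lower. Of the 12 measured ERK feedback and target genes, 5 had a log2 ratio above 0 and 7 below, with a median of -0.14. Among them 2 were at least 2-fold higher and 2 lower. Relative to the table's shift 7 were above 0 and 5 below, with a median of 0.06, and 3 were at least 2-fold higher and 1 lower, as Etv5 moved to -0.97 and Fosl1 to 1.14. Without centring the lower ones were Spred1, a Sprouty-related inhibitor, at 17.0 FPKM in KO cells and 43.0 FPKM in Flox/Flox cells, and the ETS factor Etv5, at 15.3 FPKM in KO cells and 35.7 FPKM in Flox/Flox cells. The higher ones were the immediate-early gene Egr1, at 14.9 FPKM in KO cells and 3.52 FPKM in Flox/Flox cells, and the ERK phosphatase Dusp5, at 7.21 FPKM in KO cells and 1.75 FPKM in Flox/Flox cells. Dusp6, another ERK phosphatase, had 31.3 FPKM in KO cells and 29.1 FPKM in Flox/Flox cells. None of the 12 signal transducers from FGF receptor to ERK passed 2-fold. Nor did any of the 5 measured FGF ligand and receptor genes pass 2-fold, where Fgfr1 had 19.8 FPKM in KO cells and 11 FPKM in Flox/Flox cells. All 8 pluripotency markers had log2 ratios below 0 (median -0.59), Nanog only before rounding, with 111 FPKM in both ESC cultures. Sox2, at 48.5 FPKM in KO cells and 142 FPKM in Flox/Flox cells, passed 2-fold. None of the 8 was significant in the authors' deposited table. Relative to the table's shift 7 of the 8 stayed below 0, and Nanog stood at 0.20. The part of these marker differences in the Tdgf1, Gdf3, Fgf4 and Sprouty values was not tested. Set against Pou5f1, which encodes OCT4, Tdgf1 amounted to 2.16 times its level in the KO ESC and 2.91 times in the Flox/Flox ESC, and Fgf4 to 0.258 times in the KO ESC and 0.328 times in the Flox/Flox ESC.

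**Figure D2:**
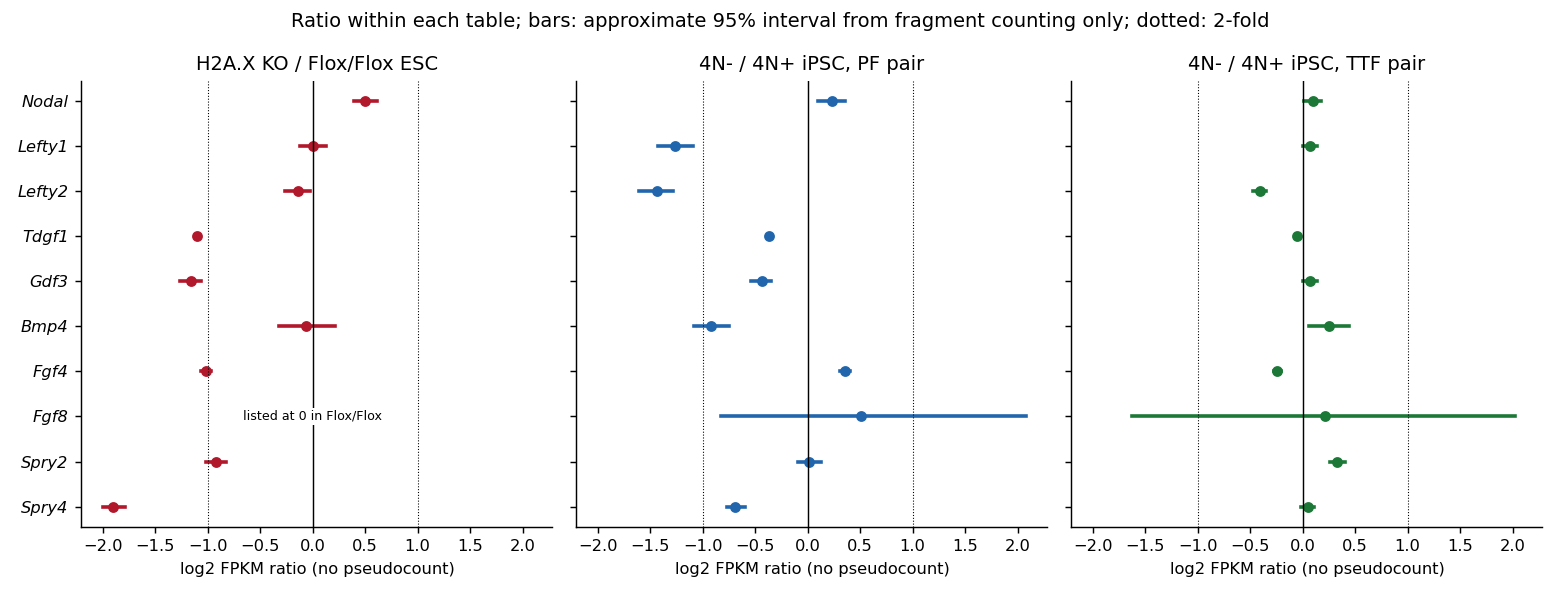
Log2 ratio of FPKM without pseudocount (x axis) of the 10 genes (y axis) for H2A.X KO over Flox/Flox ESC and for 4N- over 4N+ iPSC of each parental cell type. Points are the ratios of 1 library over 1 library, bars approximate 95% intervals from fragment counting only, and dotted lines mark 2-fold. Spry4 lies farthest left in the ESC, Lefty1 and Lefty2 lie left of the 2-fold line in the PF pair, and in the TTF pair every point lies within 2-fold.

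Among iPSC of peritoneal fibroblast origin, the 2 genes past the 2-fold line between 4N- and 4N+ were the Lefty inhibitors. Lefty1 had 6.89 FPKM in the 4N- PF line and 16.4 FPKM in the 4N+ PF line, and was 2.39-fold lower in 4N- (interval 2.13 to 2.68). Lefty2 had 4.42 FPKM in the 4N- PF line and 12 FPKM in the 4N+ PF line, and was 2.72-fold lower in 4N-. Both inhibitors were thus low in the 4N- line while their inducer was not: Nodal had 13.3 FPKM in the 4N- PF line and 11.4 FPKM in the 4N+ PF line. In the authors' deposited table Lefty2 was significant (q = 0.0236) and Lefty1 was not (q = 0.123), and that table called 0.537% of its tested genes. The table rests on 1 library per condition, so these q-values carry no spread between cultures. Past the 2-fold line, 2 of the 9 measured genes were lower in 4N- and 0 higher, where 0.974% of the 11606 genes measured were lower and 0.577% higher. Their median was -0.43, against -0.13 over all genes, of which 68.1% lay below 0. The well-expressed genes of this table had a median of -0.17. Relative to it Lefty2, at -1.1, stayed past 2-fold and Lefty1, at -0.98, did not, and the genes past 2-fold in the whole table numbered 91 higher and 87 lower, in place of 67 and 113.

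The co-receptor Tdgf1 had 584 FPKM in the 4N- PF line and 756 FPKM in the 4N+ PF line. Gdf3 had 19.8 FPKM in the 4N- PF line and 26.9 FPKM in the 4N+ PF line. Both were lower by less than 2-fold, with log2 ratios of -0.37 and -0.43. Genes of chromosome 6, where Gdf3 lies, had a median of -0.43 in this pair, lower by 0.27 than that of the table's well-expressed genes. This is the value of Gdf3 as well. Within 500 kb of Gdf3, 11 measured genes had a median of -0.14 and ranged from -0.76 to 0.27. The part of chromosome 6 as a whole in the Gdf3 value was not tested. Chromosome 1, which holds both Lefty genes, had a median of -0.15. Within 500 kb of Lefty1, 11 measured genes other than Lefty2 had log2 ratios from -0.29 to 0.64. No gene of the Nodal receptor and Smad list or of the processing and inhibitor list passed 2-fold in this pair. Skil had 17.0 FPKM in the 4N- PF line and 26.5 FPKM in the 4N+ PF line.

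Bmp4 and Fgf4 went opposite ways in the PF pair. Bmp4 had 5.26 FPKM in the 4N- PF line and 9.95 FPKM in the 4N+ PF line, or 52.9% of the 4N+ level (interval of the ratio 0.471 to 0.596). Fgf4 had 77.7 FPKM in the 4N- PF line and 60.5 FPKM in the 4N+ PF line, a ratio of 1.28. The Fgf4 level was thus 14.8 times that of Bmp4 in the 4N- line and 6.08 times in the 4N+ line. Spry4 had 9.28 FPKM in the 4N- PF line and 14.9 FPKM in the 4N+ PF line, and Spry2 had 17.4 FPKM in the 4N- PF line and 17.2 FPKM in the 4N+ PF line, with an interval of the Spry2 ratio from 0.939 to 1.09. Spry4 amounted to 0.119 times the Fgf4 level in the 4N- line, against 0.247 times in the 4N+ line, so the higher Fgf4 did not come with higher Spry4. Fgf8 had 0.281 FPKM in the 4N- PF line and 0.196 FPKM in the 4N+ PF line, about 12 and 8 fragments.

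All 11 measured of the 12 ERK feedback and target genes had log2 ratios below 0 in the PF pair (median -0.52), and 9 of the 11 lay below the table's shift. Egr1 passed 2-fold, at 2.29 FPKM in the 4N- PF line and 6.62 FPKM in the 4N+ PF line, with q = 0.0366 in the authors' deposited table. Etv4 had 28.0 FPKM in the 4N- PF line and 41.2 FPKM in the 4N+ PF line. Etv5 had 12.4 FPKM in the 4N- PF line and 19.8 FPKM in the 4N+ PF line. Dusp6 had 9.44 FPKM in the 4N- PF line and 15.1 FPKM in the 4N+ PF line. These 3 differences were each under 2-fold, and the 12 transducers to ERK showed none past 2-fold (median -0.21). The 3 measured BMP targets had log2 ratios between 0.03 and 0.40, Id2 standing at 8.90 FPKM in the 4N- PF line and 6.52 FPKM in the 4N+ PF line. Grem1, a secreted BMP inhibitor of mesenchymal cells, had 0.0314 FPKM in the 4N- PF line and 1.0 FPKM in the 4N+ PF line, with q = 0.00225 in the authors' deposited table. Fibroblast markers differed in the same direction: with no filter, 9 of 10 had a log2 ratio below 0, 4 of them at least 2-fold, and Lum was at 0 in both lines. Over all genes at 1 FPKM or more in this pair, 68.1% lay below 0 and 0.974% were at least 2-fold lower. S100a4 had 0.153 FPKM in the 4N- PF line and 40.1 FPKM in the 4N+ PF line, and Col1a2 had 0.0228 FPKM in the 4N- PF line and 5.41 FPKM in the 4N+ PF line. Their part in the Bmp4, Grem1, Egr1 and Lefty values was not tested. The pluripotency markers of the 2 lines were nearly level, with a median log2 ratio of -0.07.

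Among iPSC of tail tip fibroblast origin, none of the 9 measured genes passed 2-fold between 4N- and 4N+, where 0.564% of the 11354 genes measured were lower and 0.185% higher. None was significant in the authors' deposited table, which called 0.301% of its tested genes. The median of the 9 was 0.07, against 0.00 over all genes, with 6 above 0 and 3 below. The largest difference was that of Lefty2, with 28.2 FPKM in the 4N- TTF line and 37.5 FPKM in the 4N+ TTF line, 1.33-fold lower in 4N- (interval 1.28 to 1.39). Lefty1 had 46.0 FPKM in the 4N- TTF line and 43.9 FPKM in the 4N+ TTF line. Lefty1 was thus not lower in 4N- here, and the Lefty2 difference had a smaller value than in the PF pair. Nodal had 20.7 FPKM in the 4N- TTF line and 19.4 FPKM in the 4N+ TTF line, Tdgf1 had 682 FPKM in the 4N- TTF line and 708 FPKM in the 4N+ TTF line, and Gdf3 had 32.9 FPKM in the 4N- TTF line and 31.3 FPKM in the 4N+ TTF line.

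Fgf4 had 72.0 FPKM in the 4N- TTF line and 84.9 FPKM in the 4N+ TTF line, the opposite direction to the PF pair. Bmp4 had 4.49 FPKM in the 4N- TTF line and 3.76 FPKM in the 4N+ TTF line, again opposite. Spry2 had 35.2 FPKM in the 4N- TTF line and 28.0 FPKM in the 4N+ TTF line. The Spry2 ratio was 1.26 (interval 1.20 to 1.32), while Spry4, with 17.1 FPKM in the 4N- TTF line and 16.5 FPKM in the 4N+ TTF line, had an interval of its ratio from 0.992 to 1.08. Fgf8 had 0.122 FPKM in the 4N- TTF line and 0.105 FPKM in the 4N+ TTF line. Of the 11 measured ERK feedback and target genes, 8 had log2 ratios above 0 and 3 below (median 0.07). Egr1 had 6.82 FPKM in the 4N- TTF line and 7.11 FPKM in the 4N+ TTF line. No gene of the other pathway lists passed 2-fold, and the fibroblast markers summed to 5.55 FPKM in 4N- and 5.43 FPKM in 4N+.

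Over both iPSC pairs together, none of the 9 genes tested passed an adjusted p of 0.05. The 4 libraries were fitted with limma, with the parental cells as a block, which leaves 1 residual degree of freedom, and 0.117% of 11985 genes were called, 14 in all, with 446 at an unadjusted p below 0.05. Lefty2, lower in the 4N- line of both pairs, had a log2 ratio of -0.83 (SE 0.212, limma adjusted p = 0.626). With 1 library left out in turn it ranged from -2.05 to 0.38, the positive value being the one without the 4N- PF line, and it was -0.05 without the 4N+ TTF line. All fits with 1 library left out had no parental block, so PF and TTF levels from separate tables enter those values. With a minimum of 5 FPKM in place of 1 FPKM, limma called 67 genes, Lefty2 among them (adjusted p = 0.00193), so its call depends on that filter. Lefty1 had a log2 ratio of -0.54 (SE 0.256, limma adjusted p = 0.999), with -1.15 in the PF pair and 0.07 in the TTF pair. With 1 library left out it ranged from -1.83 to 0.75, and it was above 0 without the 4N- PF line and, at 0.14, without the 4N+ TTF line. The other 7 genes had log2 ratios between -0.30 and 0.17, each with an adjusted p of 0.999 in limma, and their direction differed between the pairs for Gdf3, Bmp4, Fgf4 and Spry4. Nothing in the labels says that both lines of a pair came from the same animal.

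The balance between ligand and inhibitor within a library needs no scaling between libraries. The summed Lefty level was 11.3 FPKM in the 4N- PF line, against 28.5 FPKM in the 4N+ PF line, and 74.2 FPKM in the 4N- TTF line, against 81.4 FPKM in the 4N+ TTF line. Relative to Nodal this was 0.849 in the 4N- PF line, against 2.5 in the 4N+ PF line, and 3.58 in the 4N- TTF line, against 4.2 in the 4N+ TTF line. The 4N- PF line was the one library of the 6 in which Nodal exceeded both Lefty genes combined. In each of the 3 pairs the ratio was lower in the KO or 4N- culture, with sizes that differed between pairs. Lefty1 exceeded Lefty2 in every library, by 1.17 to 1.63 times. The ratio of Spry4 to Fgf4 was 0.119 to 0.122 in the KO ESC and the 4N- PF line, against 0.195 to 0.247 in the other 4 libraries.

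**Figure D3:**
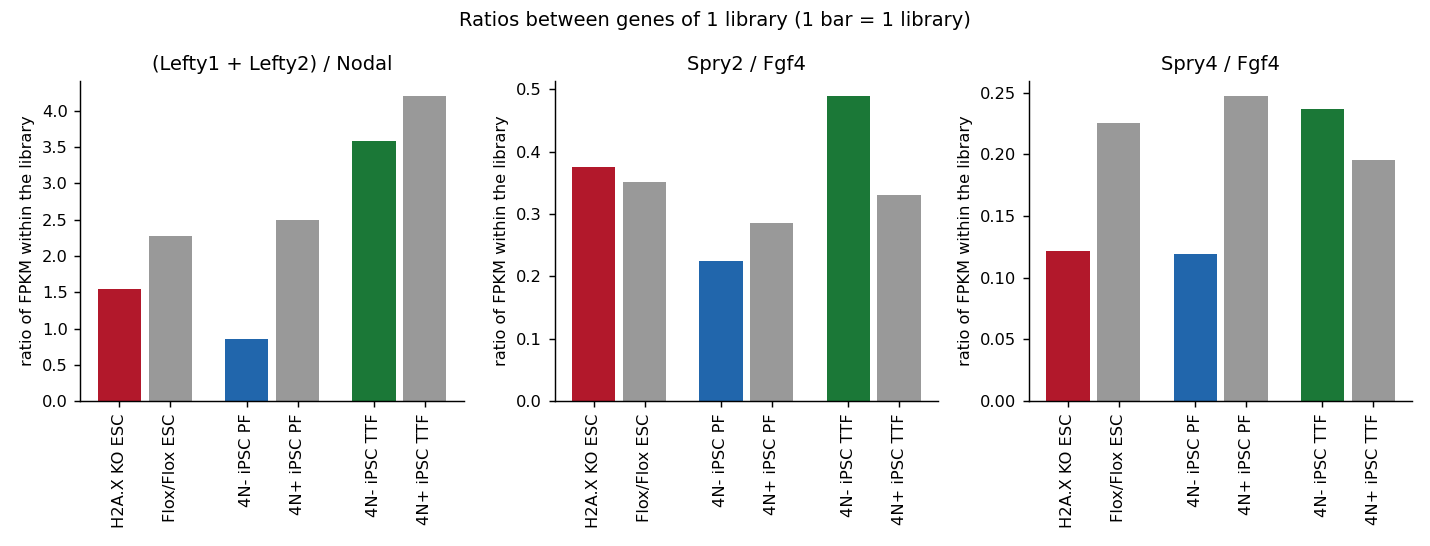
Ratios of FPKM between genes of 1 library (y axis, linear, from 0) for summed Lefty1 and Lefty2 over Nodal, Spry2 over Fgf4 and Spry4 over Fgf4, in the 6 libraries (x axis). Each bar is 1 library and has no error. The Lefty to Nodal ratio is lowest in the 4N- PF line at 0.849, and the Spry4 to Fgf4 ratio is lowest in the 4N- PF line and the KO ESC at 0.119 and 0.122.

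**Figure D4:**
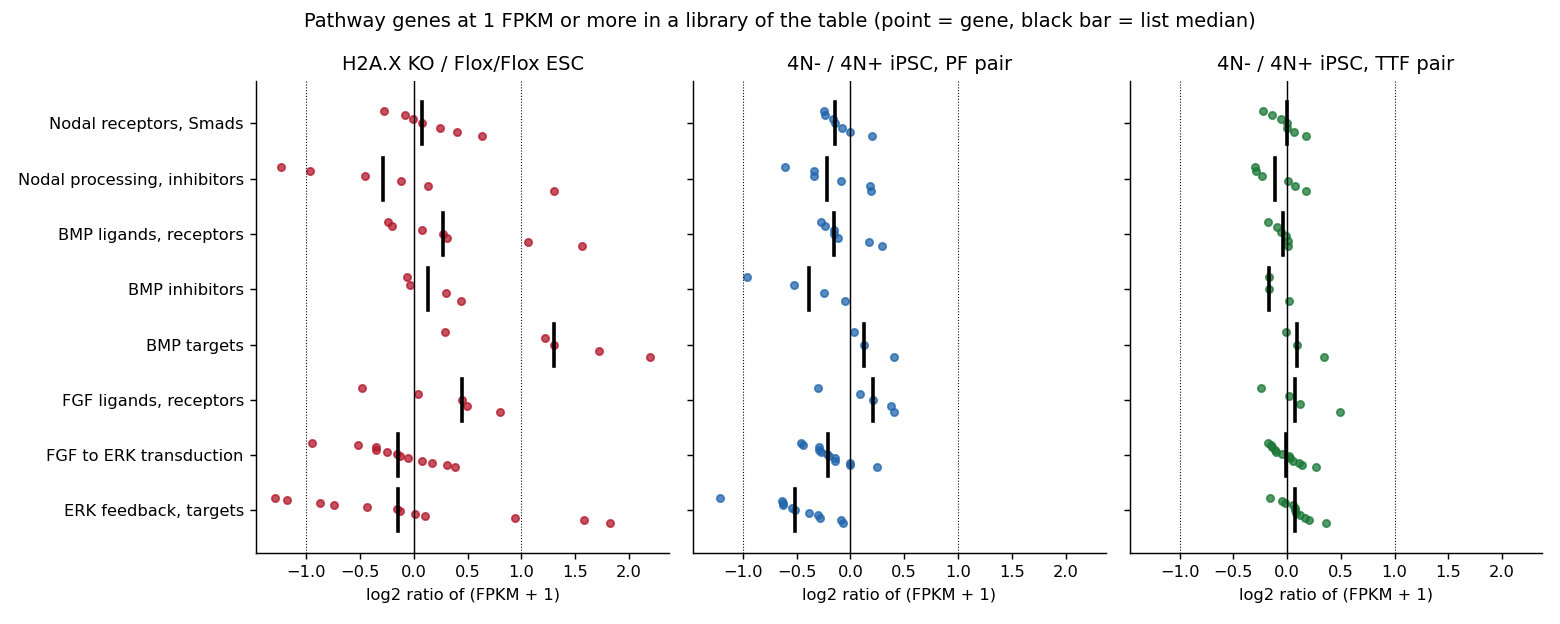
Log2 ratio of (FPKM + 1) (x axis) of each measured gene of 8 pathway lists (y axis) in the 3 comparisons, with the KO or 4N- library on top of the ratio; points are genes, black bars list medians and dotted lines 2-fold. In the ESC the BMP targets lie to the right with a median of 1.30, in the PF pair the ERK feedback and target genes lie to the left with a median of -0.52, and in the TTF pair all genes lie within 2-fold.

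Likeness to Nodal, Lefty1, Bmp4 and Fgf4 was measured over the 3 within-table log2 ratios. The genes ranked were 7079 with 5 FPKM or more in at least 1 library of each table. Among these, Spns1, Chkb and Trim35 lay nearest to Nodal (Euclidean distance 0.038 to 0.066) and BC032203, Sgk1 and Cobl nearest to Fgf4 (0.062 to 0.104). Adam19, 2410076I21Rik and Cd276 lay nearest to Lefty1 (0.190 to 0.285), with Lefty2 at rank 23. Mrpl12, Ccdc56 and Gng10 lay nearest to Bmp4 (0.114 to 0.168), with Lefty1 at rank 157. Bmp4 itself was below that level in the ESC, at 2.72 FPKM in KO cells and 2.83 FPKM in Flox/Flox cells. With 3 ratios per gene, such likeness describes these libraries and no more. In the KO ESC, 7 measured genes within 500 kb of Fgf4 had log2 ratios from -1.09 (Ccnd1, which encodes cyclin D1) to 0.51 (Cttn), and 14 within 500 kb of Tdgf1 had a median of 0.42 and ranged from -1.12 (Lrrc2) to 0.85 (Nradd).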

How the data were processed

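The study measured mRNA in 6 libraries, 2 per deposited table. Reads were processed with CASAVA and TopHat2 on mm9, per the submitters' processing notes. Which quantifier, annotation, versions and strand setting were used is not given in the sources used here. Per the file headers, the authors deposited 1 value for each library of 22558 genes, with p-value, q-value and a call of significance. The library values were read as FPKM as deposited by the authors, since they were never negative and not whole. The deposited log2 fold change and test statistic, other values per the file headers, were not used.

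Ratios were recomputed within tables as log2(FPKM + 1), with the KO or 4N- library on top, and a gene counted as measured at 1 FPKM in at least 1 library of the table. With 1 library per condition no p-value of a pair was computed; the 2-fold line is a rule of size. limma 3.58.1 was run on the 4 iPSC libraries (R 4.3.3, trend, Benjamini-Hochberg) after a test on simulated data. The pairing by parental cells comes from the labels and could not be checked with 2 pairs. Fragments were approximated from intronless receptor genes (98.2% to 100% of values within 0.05 of a whole number) and GENCODE M21 transcript lengths. The members and the 14 gene lists, 125 genes, were chosen with earlier results of these data known. Named genes were all members, list genes at 5 FPKM or more that passed 2-fold or else the list's most expressed one, and the 3 nearest genes; further list genes were chosen after their values were seen. Alternatives changed the pseudocount (0.1 FPKM), the filter (none or 5 FPKM), the centring, the block and the libraries. Some genes of these lists are not reported here.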

Additional observations from a re-analysis of the deposited data

Results flagged for a closer look

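For 4 genes the 4N- against 4N+ log2 ratio had opposite signs in the PF and TTF pairs, with counting intervals that excluded 1 in both. With 1 library per condition the difference between the pairs was not tested, and the intervals cover counting error only. The PF ratio minus the TTF ratio was -1.21 for Lefty1, -1.01 for Bmp4, -0.50 for Gdf3 and 0.59 for Fgf4. In the TTF pair Lefty1 and Gdf3 each had a log2 ratio of 0.07, so their opposite sign rests on a small difference.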

How the results depend on the processing

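Centring each table's ratios on its well-expressed genes left 1 gene past 2-fold in the KO ESC (Spry4), in place of 3, and 1 in the PF pair (Lefty2), in place of 2. The other settings kept 3 or 4 genes in the KO ESC, Fgf4 joining with a pseudocount of 0.1 FPKM, and 2 in the PF pair, and the TTF pair had 0 under each. Centring turned the sign of Lefty2 and Bmp4 in the KO ESC.

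The limma count of 14 genes became 0 with no filter, 67 with a minimum of 5 FPKM, and 3 with no replicate block (parental cells not paired), a fit that compares values across tables. It ranged from 1 (without the 4N- PF line) to 17 when each library was left out in turn, with 3 without the 4N+ TTF line; the lone sample of an arm is then assumed to vary like the other group. No member was called in these fits, except Lefty2 at a minimum of 5 FPKM. The members' log2 ratios over both pairs changed sign for 8 of 9 genes when 1 library was left out, which also compares across tables, with ranges of -0.21 to 0.51 for Nodal, -1.83 to 0.75 for Lefty1, -2.05 to 0.38 for Lefty2, -0.53 to 0.18 for Gdf3, -0.90 to 0.30 for Bmp4, -0.18 to 0.30 for Fgf4, -0.32 to 0.66 for Spry2 and -0.70 to 0.11 for Spry4. Tdgf1 stayed below 0. These fits had no parental block, so differences in level between PF and TTF lines enter each ratio. How much of each shift comes from this was not tested.

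One library per condition limits every pairwise value, and Fgf8, at 0 to about 12 fragments, was too low for a direction.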
